A study of Mus musculus with 9 samples.

Results

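The genes described here build, carry or gate the primary cilium: 42 genes of intraflagellar transport, the BBSome, the transition zone and the cargo routes of the ciliary membrane, chosen by name from a table of 38195 gene symbols. They comprise 11 genes of the IFT-B complex, 6 of IFT-A, 3 motor genes, 6 BBSome subunits, 2 BBS chaperonin genes, 10 transition zone genes and 4 genes of ciliary membrane cargo. All 42 were found (41 by symbol and Ift22 under its older symbol Rabl5), and all 42 were among the 14004 genes expressed highly enough to be tested. RNA was sequenced from 9 libraries made from hypothalamus of outbred CD-1 mouse embryos at stage E12.5. The ventricular zone (3 libraries) lines the ventricle, the medial mantle zone (3 libraries) is its neighbour, and the lateral mantle zone (3 libraries) lies farthest out, and each was microdissected from coronal vibratome slices. The labels name no genotype, transgene or treatment for any zone. Whether the libraries of a zone stem from different embryos is not stated, so p-values measure only the spread among these libraries, which may be technical.

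A primary cilium is a single membrane-covered projection grown from the mother centriole. Kinesin-driven trains of IFT-B carry tubulin and membrane proteins outward, dynein-driven trains with IFT-A carry them back, the BBSome exports receptors, and the transition zone at the base works as a gate. Neural progenitors extend a cilium into the ventricle, where it receives Hedgehog signals, and neurons carry cilia that hold peptide and amine receptors.

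The promoters of the 4 genes that passed the test below are printed first, so that their sequence can be read beside their levels. The Mks1 promoter lies at chr11:87852965-87853244, that of B9d1 at chr11:61504894-61505173, that of Ift74 at chr4:94614241-94614520 and that of Kif3a at chr11:53567119-53567398, all on the + strand of GRCm38.p6. Each runs from 250 bases before the RefSeq start to 30 bases after it, and capitals mark GTTGCC or its reverse GGCAAC, the core of the X-box that RFX transcription factors bind, or in Mks1 the whole X-box spelling.
Mks1: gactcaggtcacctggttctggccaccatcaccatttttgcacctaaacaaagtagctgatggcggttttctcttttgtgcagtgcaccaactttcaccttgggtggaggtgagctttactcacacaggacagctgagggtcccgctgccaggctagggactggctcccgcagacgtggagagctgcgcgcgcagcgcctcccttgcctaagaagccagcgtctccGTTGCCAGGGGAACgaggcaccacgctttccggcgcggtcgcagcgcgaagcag
B9d1: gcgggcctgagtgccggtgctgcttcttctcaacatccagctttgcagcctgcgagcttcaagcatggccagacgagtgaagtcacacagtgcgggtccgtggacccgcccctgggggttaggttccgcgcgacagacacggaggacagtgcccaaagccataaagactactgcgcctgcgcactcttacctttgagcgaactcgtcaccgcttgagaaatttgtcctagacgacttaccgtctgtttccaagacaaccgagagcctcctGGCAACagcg
Ift74: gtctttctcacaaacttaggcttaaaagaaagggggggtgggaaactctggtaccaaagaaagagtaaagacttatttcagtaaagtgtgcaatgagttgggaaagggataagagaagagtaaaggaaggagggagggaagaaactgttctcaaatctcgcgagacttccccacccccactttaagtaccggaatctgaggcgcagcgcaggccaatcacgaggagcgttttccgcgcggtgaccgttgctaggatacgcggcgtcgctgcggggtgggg
Kif3a: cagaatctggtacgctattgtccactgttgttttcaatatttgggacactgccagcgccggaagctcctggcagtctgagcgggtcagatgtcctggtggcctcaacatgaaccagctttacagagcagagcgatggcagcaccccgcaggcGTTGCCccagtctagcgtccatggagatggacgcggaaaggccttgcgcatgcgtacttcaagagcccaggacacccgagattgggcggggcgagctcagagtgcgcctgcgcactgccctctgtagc

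The X-box core was found in 3 of these 4 promoters: 24 bases before the start in Mks1, 21 bases after it in B9d1 and 98 bases before it in Kif3a. Over the 300-base window that runs to 50 bases after the start, either spelling of the core was present in 18 of the 38 cilium genes with a RefSeq promoter (47.4%), against 14.1% of 27025 genes with a promoter and 15.0% of 9484 tested ones. Among transition zone genes it was present in 6 of 9, among IFT-B genes in 4 of 9, among IFT-A genes in 2 of 5 and among BBSome genes in 3 of 6. The core was in 2 of 3 motor genes, 1 of 4 membrane cargo genes and 0 of 2 BBS chaperonin genes. A longer X-box spelling, GTTNCC and GGNAAC with 2 free bases between them, reads the same on both strands and overlaps the core; it was found in 3 of 38 (7.89%), as GTTGCCAGGGGAAC in Mks1, GTTGCCTTGGAAAC in Bbs7 and GTTGCCCGGGCAAC in Tctn1, against 0.529% of all promoters. A stricter spelling, GTTGCC, AT and GGNAAC in a row, searched on both strands, was in 0 of 38 cilium promoters and 0.0851% of all promoters. The spellings were chosen after several of these sequences had been read, and a match is a description of letters only. Between the ventricular and lateral mantle zones the median log2 difference was 0.16 in the 18 genes with it and 0.22 in the 20 without.

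The deposited values are FPKM, fragments scaled to transcript length and to library size, so they can be compared between genes. The cilium genes were expressed at the middle of the range. Their mean over the 9 libraries had a median of 10.8 FPKM, against 10.6 FPKM over all genes tested; 10 genes averaged under 5 FPKM, 25 between 5 and 20 FPKM and 7 at least 20 FPKM. Ift46, an IFT-B subunit, was the highest at a mean of 84.7 FPKM, and Cep290, a transition zone protein that ties the microtubules to the membrane, was the lowest by mean, between 0.915 and 4.11 FPKM. Summed over the 42 genes, a library held 568, 589 and 667 FPKM in ventricular libraries, 650, 633 and 637 FPKM in medial libraries and 581, 541 and 584 FPKM in lateral libraries. In bulk tissue, fewer cells of a type and less RNA per cell cannot be told apart.

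Libraries differed in depth. The steps between low values implied 4418733 to 8812630 counted fragments in 7 libraries, but 261303 for ventricular zone replicate 3 and 539608 for medial mantle zone replicate 3, which are 24.7-fold and 12.0-fold below the median library. These are estimates, since the share of low values lying no more than 0.1 from a whole step was 62.6% to 68.8%. In the shallow ventricular library 1 fragment on a 2 kb transcript is worth 1.91 FPKM, and a value of 0 there allows up to 5.74 FPKM (3 fragments, counting error only). That library held the highest value of 20 cilium genes and the lowest of 11, and each main count is given again for the 7 deeper libraries. 4 genes have a listed 0, all of them in ventricular zone replicate 3 (Bbs5, Bbs7, Bbs9 and Ift43), and Bbs5 also in medial mantle zone replicate 3.

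**Figure D1:**
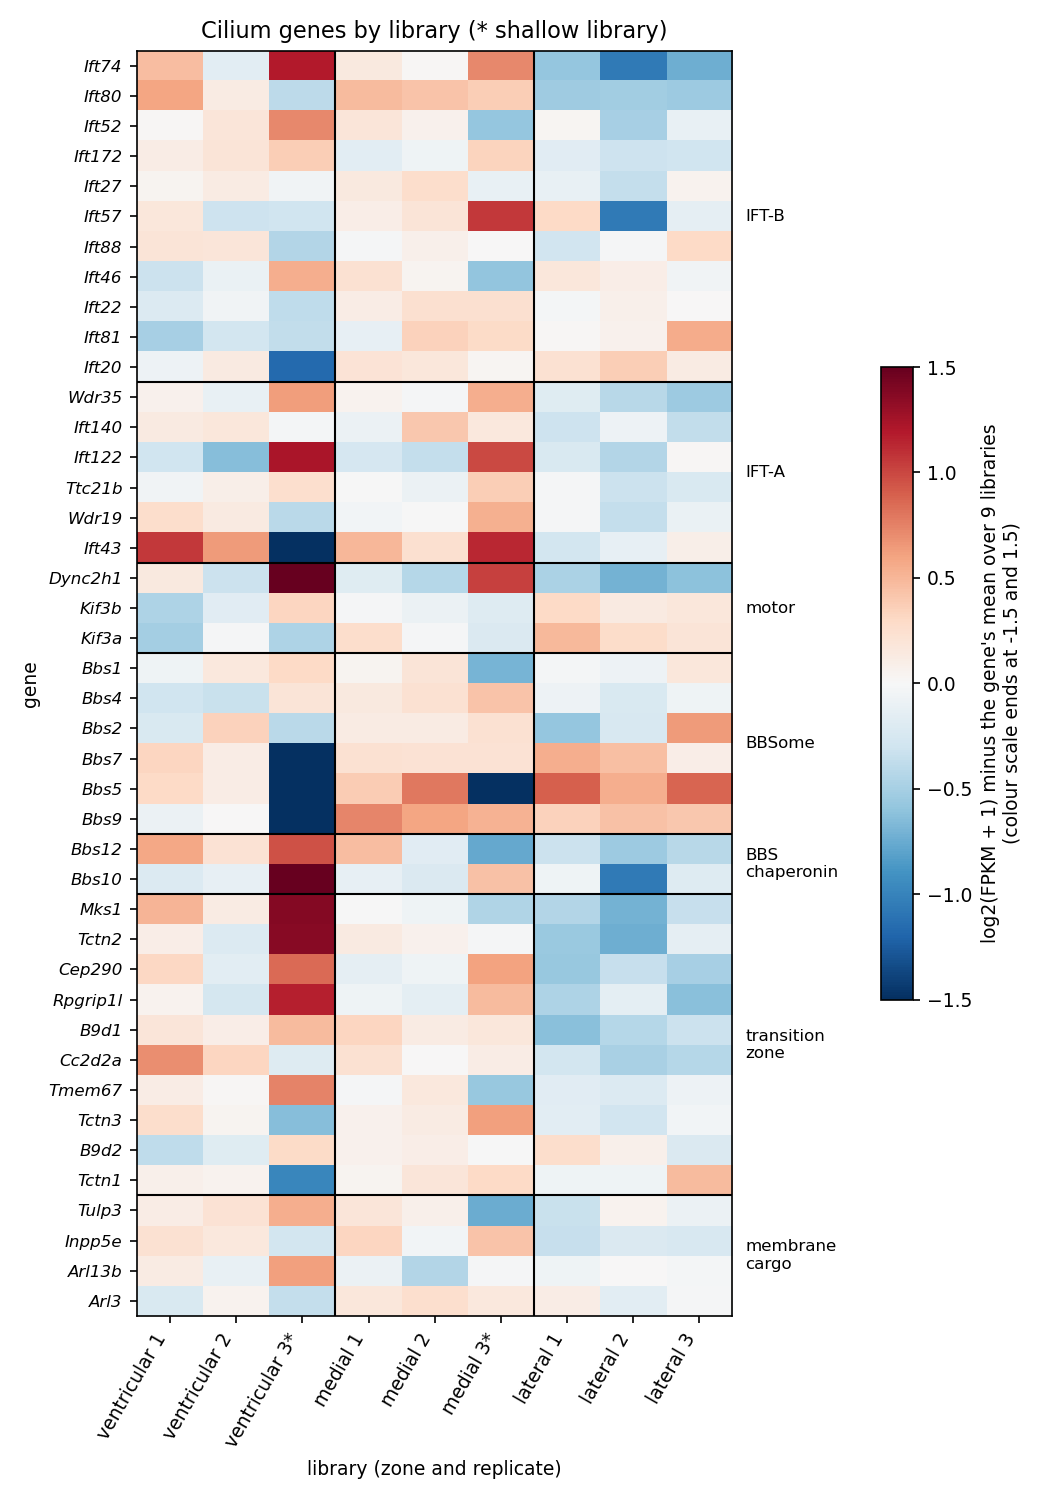
Each row is a cilium gene and each column a library, ventricular, medial and lateral from left to right; colour is log2(FPKM + 1) minus the gene's mean over 9 libraries, and the colour scale ends at -1.5 and 1.5. Transition zone rows are mostly blue in the 3 lateral libraries, and the strongest colours of both signs stand in ventricular zone replicate 3, which held the highest value of 20 genes and the lowest of 11.

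The comparison of the ventricular zone with the lateral mantle zone asks how cilium genes differ between the tissue at the ventricle and the outermost tissue. The transition zone genes Mks1 and B9d1 and the IFT-B gene Ift74 were higher in the ventricular zone, and the kinesin motor gene Kif3a was lower. These are 4 of 42 genes (9.52%) past an adjusted p of 0.05 in limma, where 19.6% of all tested genes passed (10.7% higher, 8.93% lower), so the share of cilium genes was below that of the table. All 3 ventricular values lay above all 3 lateral values in 13 genes and below them in 5, together 42.9% of the cilium genes, close to the 45.1% of all tested genes. The median log2 difference was 0.20, with 26 positive and 16 negative, against 0.05 over all genes. Differences are on the log2(FPKM + 1) scale, which understates those of low genes. The count rested on few libraries: it was 0 without ventricular zone replicate 1 or without lateral mantle zone replicate 1, 2 or 3, and 2 (B9d1 and Ift74) without medial mantle zone replicate 1 or 2.

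With the 7 deeper libraries alone, 9 cilium genes (21.4%) passed between the ventricular and lateral mantle zones, where 28.3% of 13717 tested genes did (15.7% higher, 12.7% lower). The 4 genes above were among them. Cc2d2a, Ift43, Ift80 and Bbs12 were also higher in the ventricular zone, and Kif3b was also lower. On this smaller set the log2 differences, with limma's adjusted p, were 0.90 (0.0129) for Cc2d2a, 0.95 (0.0123) for Ift43, 0.89 (0.0167) for Ift80, 0.82 (0.0488) for Bbs12 and -0.51 (0.0370) for Kif3b. Without ventricular zone replicate 3 alone, 3 genes passed, B9d1, Cc2d2a and Ift80, where 17.2% of all genes did.

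**Figure D2:**
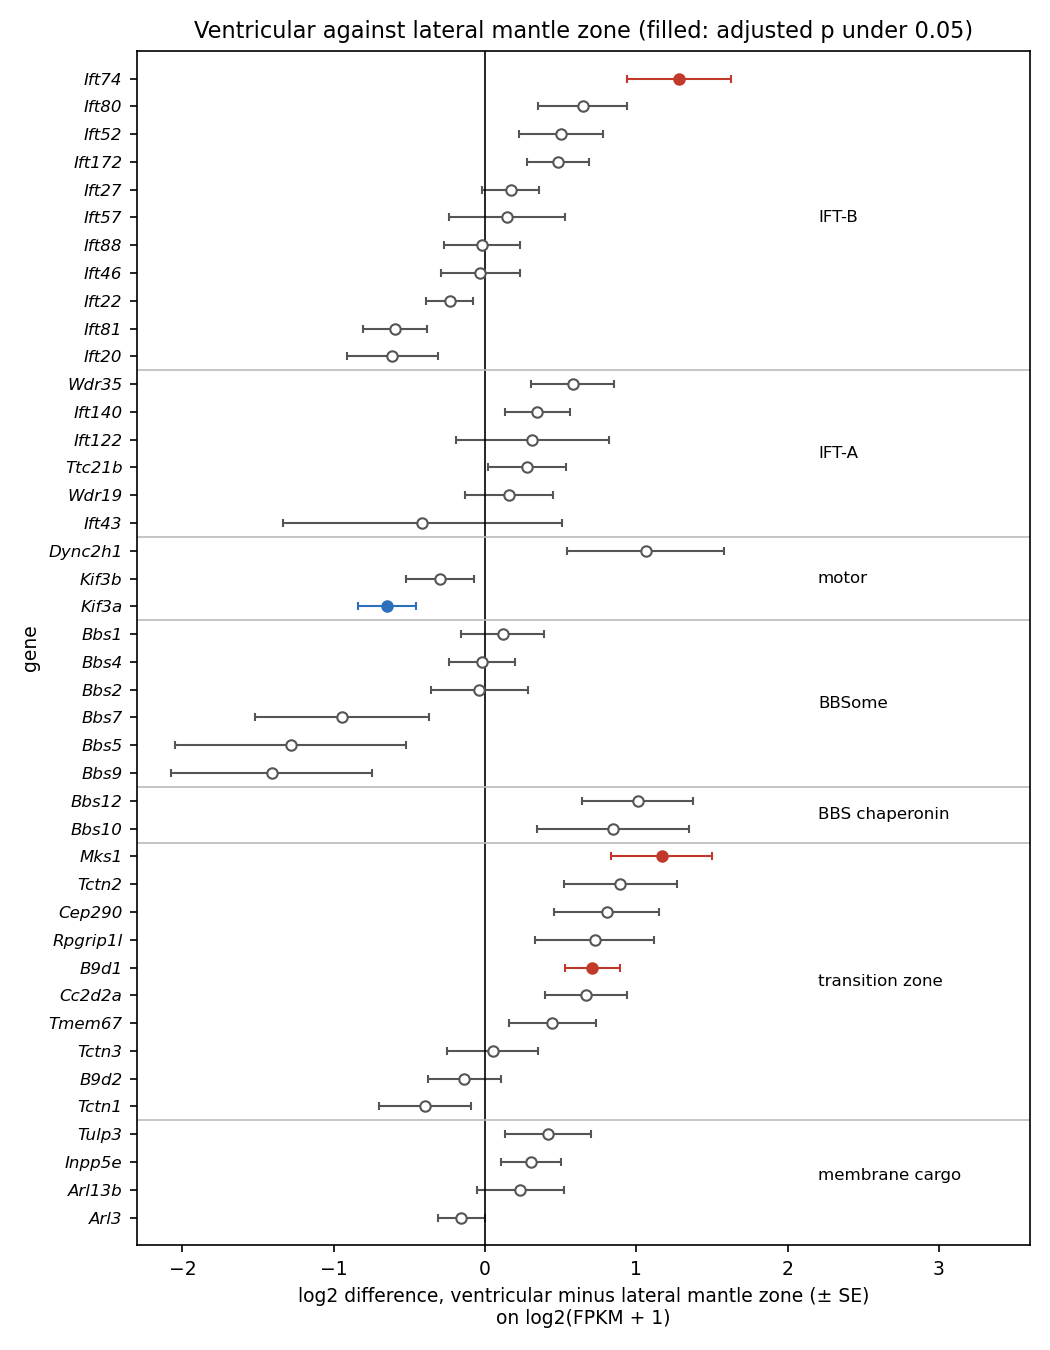
Log2 difference, ventricular minus lateral mantle zone, of each cilium gene on log2(FPKM + 1), with its standard error from limma, grouped by subcomplex; filled points passed an adjusted p of 0.05, red higher and blue lower in the ventricular zone. Ift74 (1.28), Mks1 (1.17) and B9d1 (0.71) are filled on the right and Kif3a (-0.65) on the left, and the widest errors belong to genes listed at 0 in a shallow library.

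Transition zone genes stood higher, by their median, in both inner zones than in the lateral mantle zone. That median, each gene centred on its own mean, was 0.14, 0.03 and 0.61 (log2) in the ventricular libraries, 0.05, 0.08 and 0.14 in the medial ones and -0.35, -0.31 and -0.27 in the lateral ones. No inner library overlapped a lateral one. Between ventricular and lateral mantle zones the median difference of the 10 genes was 0.69, with 8 positive and 2 of them past the threshold, and 0.37 without ventricular zone replicate 3 or without both shallow libraries. Between medial and lateral mantle zones all 10 differences were positive, with a median of 0.47, and none of the 10 passed in limma (1 at an unadjusted p under 0.05). With quantile or trimmed mean scaling 7 were positive, B9d2, Tctn1 and Tmem67 turned negative and the median was 0.30 and 0.33. These medians describe the chosen genes and carry no test.

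Mks1, a B9-domain protein of the gate mutated in human Meckel syndrome, had 10.9, 8.08 and 20.7 FPKM in ventricular libraries, 7.31, 6.96 and 5.08 FPKM in medial libraries and 5.16, 4.10 and 5.59 FPKM in lateral libraries. The ventricular libraries were above those of both other zones, and the medial and lateral ones overlapped. Its mean was 13.2 ± 6.63 FPKM in ventricular libraries and 4.95 ± 0.767 FPKM in lateral libraries (SD, n = 3 each), a log2 difference of 1.17 ± 0.33 (SE, limma adjusted p = 0.0374). It was 0.81 without the shallow libraries, and the call was lost without any 1 library other than ventricular zone replicate 2 or medial mantle zone replicate 3 (adjusted p 0.0524 to 0.125). Against the medial mantle zone the log2 difference of Mks1 was 0.85, with an adjusted p of 0.393 in limma, and 0.35 without the shallow libraries.

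B9d1, a second B9-domain protein of the same complex, had 21.7, 20.6 and 27.0 FPKM in ventricular libraries, 24.2, 20.8 and 21.5 FPKM in medial libraries and 12.0, 14.0 and 15.1 FPKM in lateral libraries. All 6 inner libraries were above the 3 lateral ones, and the inner zones overlapped. It averaged 23.1 ± 3.41 FPKM in ventricular libraries and 13.7 ± 1.54 FPKM in lateral libraries (SD, n = 3 each), a log2 difference of 0.71 ± 0.18 (SE, limma adjusted p = 0.0258). B9d1 was also the only cilium gene past the threshold in limma's F test over the 3 zones (adjusted p = 0.0495), a test that 10.7% of all genes passed and that 6 cilium genes passed at an unadjusted p under 0.05. The F test count was 4 without ventricular zone replicate 2 or 3 (21% and 13.8% of all genes). It was 0 without any other single library (2.86% to 9.68% of all genes). The limma call of B9d1 between the ventricular and lateral mantle zones was lost without ventricular zone replicate 1 (adjusted p = 0.0607) or any 1 lateral library (adjusted p up to 0.107).

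The other transition zone genes missed the threshold in the 9 libraries. Cc2d2a, a coiled-coil protein of the gate, had 11.7, 8.81 and 5.83 FPKM in ventricular libraries, 8.14, 6.87 and 7.45 FPKM in medial libraries and 5.48, 4.60 and 4.84 FPKM in lateral libraries. Every inner library of Cc2d2a was above every lateral one, and its log2 difference between ventricular and lateral mantle zones was 0.67 (limma adjusted p = 0.110). Cep290 had 2.53, 1.54 and 4.11 FPKM in ventricular libraries, 1.58, 1.71 and 3.33 FPKM in medial libraries and 0.915, 1.24 and 1.01 FPKM in lateral libraries. Here too the lateral libraries were the lowest without overlap, with log2 differences of 0.80 and 0.60 from them in the ventricular and medial mantle zones (limma adjusted p = 0.131 and 0.363); the second was 0.36 without the shallow libraries. Tctn2, a tectonic protein, reached 31.7 FPKM in the shallow ventricular library against 12.6 and 10.1 FPKM in the other ventricular ones, and its lateral values of 7.68, 6.66 and 10.6 FPKM overlapped them. Tmem67, a membrane protein of the gate, lay between 7.64 and 13.3 FPKM in ventricular libraries and between 6.40 and 7.06 FPKM in lateral libraries, without overlap (log2 difference 0.44, limma adjusted p = 0.294, and 0.22 without the shallow libraries). Rpgrip1l, a scaffold of the gate, had a log2 difference of 0.73, or 0.30 without the shallow libraries, and overlapping libraries. Tctn3, B9d2 and Tctn1 had log2 differences of 0.05, -0.14 and -0.40 between ventricular and lateral mantle zones, each with overlapping libraries, and 0.31, -0.33 and -0.05 without the shallow libraries.

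**Figure D3:**
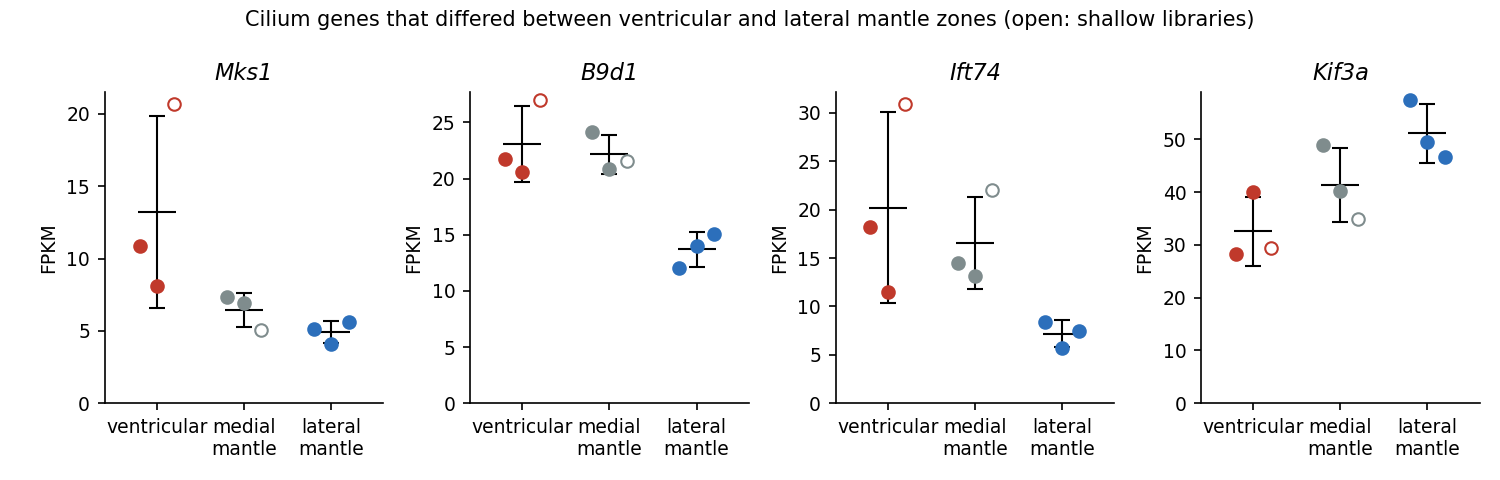
FPKM of the 4 cilium genes past the threshold, one point per library, ventricular, medial and lateral zones from left to right; bars are the mean and SD of 3 libraries and open points the shallow libraries. Ventricular points of Mks1, B9d1 and Ift74 lie above all lateral points, and those of Kif3a below them, with the open ventricular points of Mks1 (20.7 FPKM) and Ift74 (30.9 FPKM) highest.

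In IFT-B, the outward train, the genes pointed both ways. Between ventricular and lateral mantle zones 6 were positive and 5 negative, with a median of 0.14, and the value was 0.21 without the shallow libraries. Ift74 and Ift81, which bind each other and tubulin in the train, pointed opposite ways.

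Ift74 had 18.3, 11.5 and 30.9 FPKM in ventricular libraries, 14.5, 13.2 and 22.0 FPKM in medial libraries and 8.40, 5.72 and 7.45 FPKM in lateral libraries. All inner libraries were above all lateral ones. Its mean was 20.2 ± 9.84 FPKM in ventricular libraries and 7.19 ± 1.36 FPKM in lateral libraries (SD, n = 3 each), a log2 difference of 1.28 ± 0.35 (SE, limma adjusted p = 0.0306). That difference was 0.94 without the shallow libraries, and the call was lost without ventricular zone replicate 1 or 3 or any 1 lateral library (adjusted p 0.0539 to 0.110). Between the medial and lateral mantle zones the log2 difference of Ift74 was 1.08 with an adjusted p of 0.120 in limma, and in the 7 deeper libraries it was 0.87 with an adjusted p of 0.0480.

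Ift81 had 13.9, 16.4 and 15.3 FPKM in ventricular libraries, 18.4, 25.7 and 24.7 FPKM in medial libraries and 20.4, 21.1 and 30.1 FPKM in lateral libraries. The ventricular libraries were the lowest, without overlap with either mantle zone. The log2 difference was -0.60 from the lateral and -0.55 from the medial mantle zone, with adjusted p-values of 0.0755 and 0.393 in limma; with quantile or trimmed mean scaling Ift81 passed against the lateral mantle zone. The ratio of Ift74 to Ift81 was 0.701 to 2.01 in ventricular libraries, 0.511 to 0.890 in medial ones and 0.248 to 0.411 in lateral ones. Ventricular and medial ratios overlapped, and both lay above the lateral ratios.

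Ift80, a peripheral IFT-B subunit, had 6.65, 4.57 and 2.89 FPKM in ventricular libraries, 6.09, 5.87 and 5.60 FPKM in medial libraries and 2.51, 2.54 and 2.49 FPKM in lateral libraries. Both inner zones were above the lateral one, and the lowest inner value came from the shallow ventricular library. Its log2 difference from the lateral mantle zone was 0.64 in the ventricular zone and 0.96 in the medial mantle zone (limma adjusted p = 0.145 and 0.105). Ift172, the largest IFT-B subunit, had 13.0, 13.8 and 15.7 FPKM in ventricular libraries, 10.6, 11.3 and 15.3 FPKM in medial libraries and 10.5, 9.41 and 9.55 FPKM in lateral libraries, again without overlap between inner and lateral libraries (log2 difference 0.48 between ventricular and lateral, limma adjusted p = 0.128). The small GTPase gene Ift22 was lowest in the ventricular zone, at 21.8, 24.4 and 19.3 FPKM, with 27.5, 30.2 and 30.2 FPKM in medial libraries and 24.9, 26.9 and 25.6 FPKM in lateral libraries. Its 3 zones did not overlap, and its log2 difference between ventricular and lateral mantle zones was -0.23 (limma adjusted p = 0.307), or -0.15 without the shallow libraries.

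The most abundant IFT-B gene, Ift46, had 65.8, 77.4 and 121 FPKM in ventricular libraries, 97.4, 84.9 and 54.5 FPKM in medial libraries and 93.0, 88.6 and 79.8 FPKM in lateral libraries. Its zones overlapped, with the highest and the lowest value in the shallow libraries and a log2 difference of -0.03 between ventricular and lateral mantle zones, which was -0.28 without those libraries. Ift20, which also works at the Golgi, was at 24.6, 28.6 and 11.1 FPKM in ventricular libraries, and all medial and lateral libraries lay between 26.7 and 33.9 FPKM. The 11.1 FPKM came from the shallow library. Ift27, Ift52, Ift57 and Ift88 (polaris) had log2 differences of 0.17, 0.50, 0.14 and -0.02 between ventricular and lateral mantle zones, all with overlapping libraries; without the shallow libraries those of Ift52, Ift57 and Ift88 were 0.30, 0.22 and 0.19.

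IFT-A genes, which bring the train back and admit membrane receptors, had their lowest medians in the lateral libraries. The median of the 6 genes was 0.10, 0.11 and 0.11 (centred log2) in the ventricular libraries, -0.02, -0.02 and 0.54 in the medial ones and -0.21, -0.34 and -0.16 in the lateral ones. No lateral library overlapped an inner one, and the medial value of 0.54 came from the shallow library. The median log2 difference was 0.30 between ventricular and lateral mantle zones and 0.38 between medial and lateral mantle zones, positive in 5 and in 6 of 6 genes, and no IFT-A gene passed in limma, with 0 at an unadjusted p under 0.05 in either comparison. Wdr35 had 9.20, 8.06 and 14.1 FPKM in ventricular libraries, 9.10, 8.62 and 13.2 FPKM in medial libraries and 7.58, 6.32 and 5.68 FPKM in lateral libraries. Its inner libraries were all above the lateral ones (log2 difference 0.58 between ventricular and lateral, limma adjusted p = 0.160, and 0.36 without the shallow libraries), and in both inner zones the shallow library was the highest.

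Ift43, the smallest IFT-A subunit, had 18.7, 13.8 and a listed 0 FPKM in ventricular libraries, 12.4, 10.2 and 19.9 FPKM in medial libraries and 6.84, 7.74 and 9.07 FPKM in lateral libraries. Apart from the 0 in the shallow library, every inner value was above every lateral one. With that 0 its log2 difference was -0.41 between ventricular and lateral mantle zones (limma adjusted p = 0.772), and the sign turned to 0.95 when the shallow libraries were left out. Ift122 had 8.47, 6.49 and 26.2 FPKM in ventricular libraries, 8.82, 8.10 and 22.2 FPKM in medial libraries and 8.94, 7.58 and 10.8 FPKM in lateral libraries. It was the most abundant IFT-A gene by mean, yet its high values were those of the 2 shallow libraries and the zones overlapped. Ift140, Ttc21b and Wdr19 had log2 differences of 0.34, 0.28 and 0.16 between ventricular and lateral mantle zones, without overlap in Ift140, and that of Wdr19 was 0.36 without the shallow libraries.

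Among the motors, Kif3a and Kif3b, the paired motor subunits of heterotrimeric kinesin that pull the train outward and also work in axons, were highest in the lateral mantle zone by mean. Kif3a had 28.2, 40.1 and 29.4 FPKM in ventricular libraries, 48.9, 40.2 and 35.0 FPKM in medial libraries and 57.4, 49.5 and 46.6 FPKM in lateral libraries. The ventricular libraries were all below the lateral ones, and the medial libraries overlapped both. Kif3a averaged 32.5 ± 6.52 FPKM in ventricular libraries and 51.2 ± 5.58 FPKM in lateral libraries (SD, n = 3 each), a log2 difference of -0.65 ± 0.19 (SE, limma adjusted p = 0.0423). The value was -0.59 without the shallow libraries, and the call was lost without the intensity trend and, as for Mks1, without any 1 library other than ventricular zone replicate 2 or medial mantle zone replicate 3 (adjusted p 0.0524 to 0.152).

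Kif3b had 11.0, 13.7 and 19.6 FPKM in ventricular libraries, 15.3, 14.5 and 13.4 FPKM in medial libraries and 19.3, 17.0 and 17.5 FPKM in lateral libraries. Only the shallow ventricular library reached the lateral values. Its log2 difference was -0.30 between ventricular and lateral mantle zones (limma adjusted p = 0.363). The ratio of Kif3a to Kif3b was 2.33 ± 0.747 in ventricular libraries, 2.86 ± 0.298 in medial ones and 2.85 ± 0.168 in lateral ones (SD, n = 3 each), and its ranges overlapped.

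The return motor Dync2h1, the heavy chain of the ciliary dynein, went the other way. It had 4.83, 3.24 and 14.5 FPKM in ventricular libraries, 3.67, 2.94 and 9.78 FPKM in medial libraries and 2.80, 2.23 and 2.44 FPKM in lateral libraries. Inner libraries were all above lateral ones, with the highest values in the 2 shallow libraries. The log2 difference between ventricular and lateral mantle zones was 1.06 (limma adjusted p = 0.172) and 0.51 without ventricular zone replicate 3 or without both shallow libraries.

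**Figure D4:**
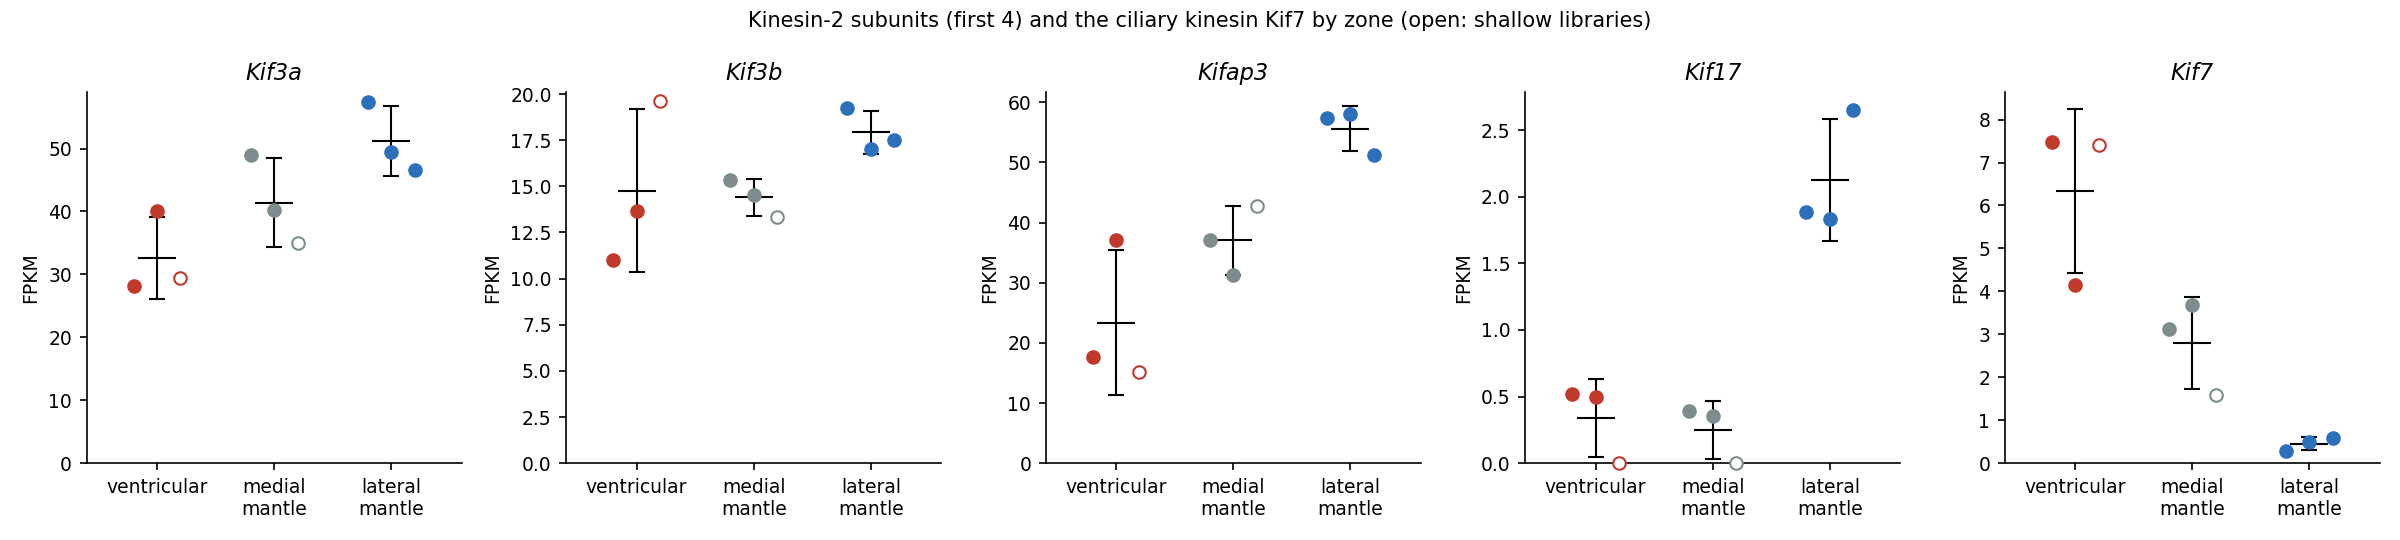
FPKM of the kinesin motor genes Kif3a and Kif3b, their partner Kifap3, the motor Kif17 and the ciliary kinesin Kif7, one point per library, ventricular, medial and lateral zones from left to right; bars are the mean and SD of 3 libraries and open points the shallow libraries. Kif3a, Kifap3 and Kif17 have their highest mean in the lateral libraries, and Kif7 is highest in the ventricular ones, at 4.14 to 7.48 FPKM against 0.285 to 0.577 FPKM in the lateral ones.

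BBSome subunits form the coat that carries receptors out of the cilium. Of the 6 genes, 0 passed in limma and 0 had an unadjusted p under 0.05 between ventricular and lateral mantle zones. Their median log2 difference was -0.49, with 5 of 6 negative, and -0.17 without the shallow libraries. Bbs9, a scaffold subunit, had 6.36, 6.84 and a listed 0 FPKM in ventricular libraries, 12.0, 10.8 and 10.2 FPKM in medial libraries and 8.94, 9.57 and 9.32 FPKM in lateral libraries. The 3 zones did not overlap, also when the 0 is set aside, with the medial mantle zone highest. Its log2 difference was -1.41 from the lateral and -1.63 from the medial mantle zone (limma adjusted p = 0.158 and 0.399), and -0.43 and -0.70 without the shallow libraries.

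Bbs5, which binds membrane phosphoinositides, had 3.77, 3.19 and a listed 0 FPKM in ventricular libraries, 4.05, 5.71 and a listed 0 FPKM in medial libraries and 6.18, 4.66 and 6.08 FPKM in lateral libraries. Ventricular libraries were below lateral ones, and both zeros are those of shallow libraries. The most abundant subunit, Bbs2, had 12.7, 19.6 and 11.2 FPKM in ventricular libraries, 16.5, 16.5 and 17.9 FPKM in medial libraries and 9.83, 12.6 and 24.1 FPKM in lateral libraries, which overlapped. Bbs4 was above the lateral libraries in all 3 medial ones, at 13.1 to 16.1 FPKM against 9.83 to 11.1 FPKM (log2 difference 0.39, limma adjusted p = 0.340). Bbs1 and Bbs7 had log2 differences of 0.12 and -0.95 between ventricular and lateral mantle zones with overlapping libraries, and 0.03 and -0.14 without the shallow libraries; Bbs7 was listed at 0 in the shallow ventricular library.

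The chaperonin-like genes Bbs10 and Bbs12, which help assemble the BBSome, were low. Bbs12 had 3.56, 2.57 and 4.93 FPKM in ventricular libraries, 3.22, 1.73 and 0.796 FPKM in medial libraries and 1.46, 1.10 and 1.30 FPKM in lateral libraries. All ventricular libraries were above all lateral ones, and the medial libraries overlapped both. The log2 difference between ventricular and lateral mantle zones was 1.01 (limma adjusted p = 0.0804). Bbs10 had 1.37, 1.51 and 6.93 FPKM in ventricular libraries against 1.60, 0.310 and 1.38 FPKM in lateral libraries, so its log2 difference of 0.85 came with overlap and a single high value in the shallow library, and was 0.28 without the shallow libraries.

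None of the 4 membrane cargo genes passed in any comparison in limma, and at an unadjusted p under 0.05 there were 0 between ventricular and lateral, 1 between ventricular and medial and 1 between medial and lateral mantle zones. Arl3, the GTPase that releases lipid-anchored cargo inside the cilium, had 48.2, 58.9 and 43.9 FPKM in ventricular libraries, 63.5, 67.6 and 63.2 FPKM in medial libraries and 61.4, 50.7 and 55.9 FPKM in lateral libraries. The medial libraries were above those of both other zones, which overlapped each other. Arl13b, the GTPase that activates Arl3, lay between 2.06 and 5.33 FPKM over all 9 libraries, with the highest in the shallow ventricular one. Inpp5e, a phosphoinositide phosphatase of the ciliary membrane, had 30.3, 23.2 and 32.5 FPKM in medial libraries against 18.7, 20.5 and 20.1 FPKM in lateral libraries, without overlap (log2 difference 0.50, limma adjusted p = 0.192). Tulp3, the adaptor that hands receptors to IFT-A, had 11.9, 12.9 and 16.3 FPKM in ventricular libraries against 8.44, 11.3 and 10.2 FPKM in lateral libraries, without overlap (log2 difference 0.42, limma adjusted p = 0.317).

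**Figure D5:**
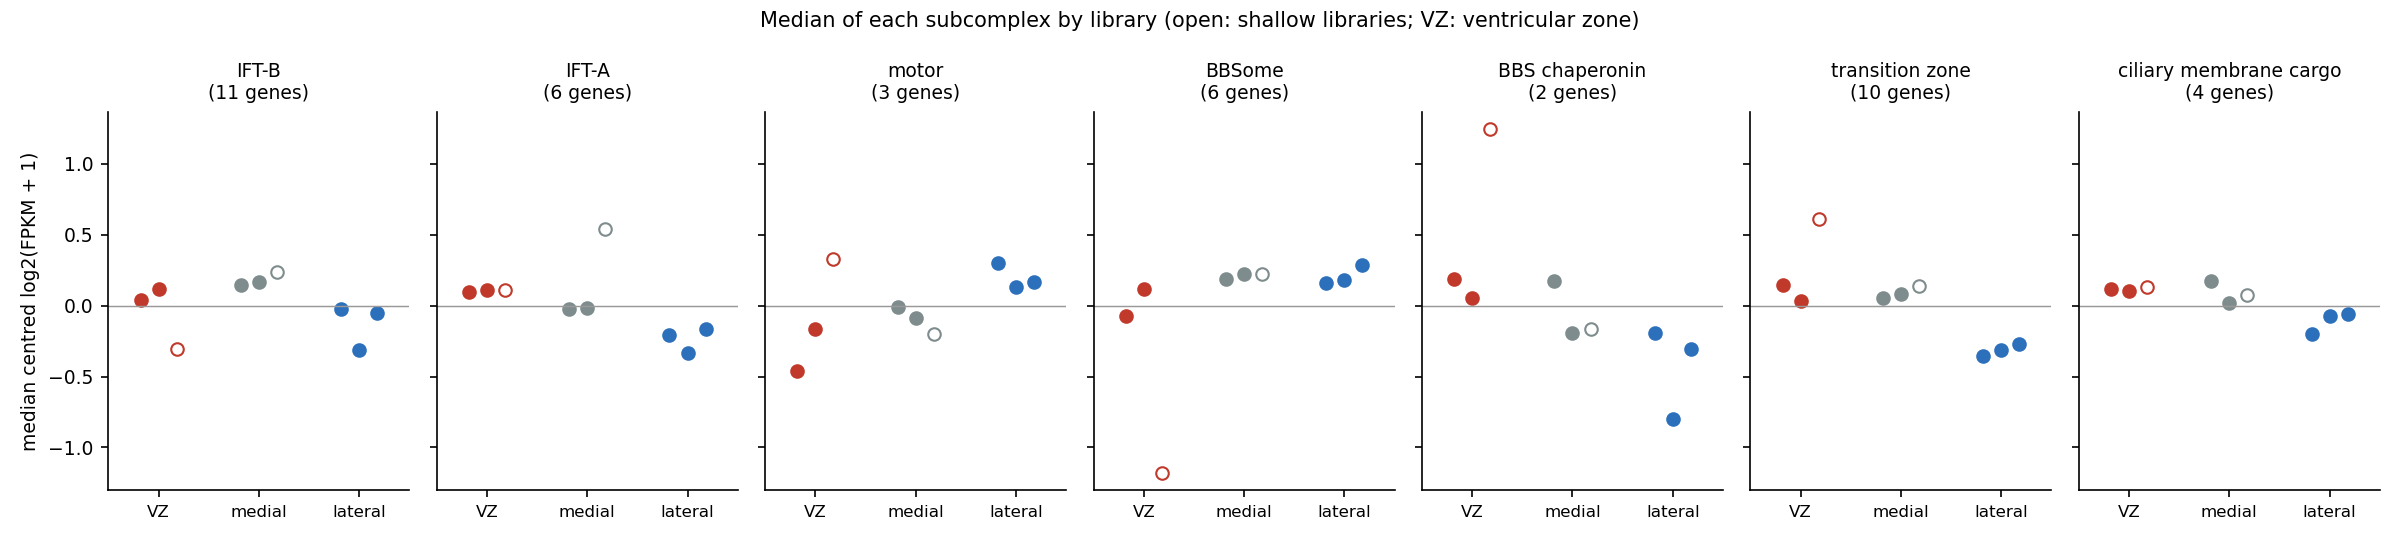
Median over the genes of each subcomplex of log2(FPKM + 1) centred on each gene's mean, one point per library, ventricular, medial and lateral zones from left to right; open points are the shallow libraries. The lateral points are lowest for the transition zone (-0.35 to -0.27) and for IFT-A (-0.34 to -0.16), while the BBSome's lowest point (-1.18) is the shallow ventricular library.

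The comparison of the ventricular with the medial mantle zone called 0 of 42 cilium genes in limma, and 5 had an unadjusted p under 0.05. Of all 14004 genes, 0% passed and 1661 had an unadjusted p under 0.05. The libraries did not overlap in 5 genes (11.9%), against 14.7% of all genes. Mks1 was above (5.36% of all genes), and Arl3, Bbs9, Ift22 and Ift81 were below (9.30% of all genes), with the values given above. The median log2 difference was -0.04, against -0.05 over all genes. With the 7 deeper libraries the count was again 0 of 42, where 0% of all genes passed. Without ventricular zone replicate 2 it was also 0, where 4.09% of all genes passed.

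The comparison of the medial with the lateral mantle zone also called 0 of 42 genes in limma, with 4 at an unadjusted p under 0.05, where 4.12% of all genes passed (3.58% higher, 0.543% lower). In 17 cilium genes (40.5%) all medial libraries lay above all lateral ones, and in 1 (Kif3b, 2.38%) below, against 25.7% and 14.8% of all genes, 40.4% in both directions. The median log2 difference was 0.27, with 32 positive and 10 negative, against 0.10 over all genes. With quantile or trimmed mean scaling 27 were positive and the median was 0.14, against -0.01 and -0.04 over all genes. B9d1 had the smallest adjusted p, 0.0791 in limma, with a log2 difference of 0.66. Without ventricular zone replicate 3, and likewise in the 7 deeper libraries, B9d1, Ift74 and Ift80 passed, 3 of 42 (7.14%) where 12.0% of all genes passed in the deeper set (9.39% higher, 2.65% lower). By zone means, 16 of the 42 genes ran from ventricular through medial to lateral in falling order, and 6 ran in the opposite order. The medial zone was highest in 9 with the lateral lowest, and in 7 with the ventricular lowest. It was lowest in 3 with the ventricular zone highest and in 1 with the lateral highest. These orders were not counted over all genes or without the shallow libraries, so they describe the members only. The means include ventricular zone replicate 3, which held the highest value of 20 of the 42 genes.

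Other genes of the ciliary pathway, from lists drawn up with earlier results of these data known, were set beside the members. Of 13 other IFT and motor genes, Kif7 was higher and Kifap3 and Wdr34 were lower in ventricular than in lateral libraries. Of all tested genes, 10.7% were higher and 8.93% lower. Kif17 is among the 13, but it is described below and not counted here as higher or lower. Kif7, the kinesin that orders the ciliary tip for Hedgehog signalling, had 7.48, 4.14 and 7.40 FPKM in ventricular libraries, 3.12, 3.68 and 1.60 FPKM in medial libraries and 0.285, 0.490 and 0.577 FPKM in lateral libraries. Its 3 zones did not overlap (log2 difference 2.31 between ventricular and lateral, limma adjusted p = 0.00272). Kifap3, the accessory subunit that joins Kif3a and Kif3b to cargo, had 17.7, 37.2 and 15.2 FPKM in ventricular libraries, 37.2, 31.3 and 42.8 FPKM in medial libraries and 57.5, 58.0 and 51.3 FPKM in lateral libraries. The lateral libraries were above all others (log2 difference -1.32 between ventricular and lateral, limma adjusted p = 0.0156). The call of Kifap3 was lost without ventricular zone replicate 1 or lateral mantle zone replicate 1 or 2 (adjusted p up to 0.0619). Kif17, a motor of receptor transport in dendrites and cilia, averaged 2.12 ± 0.459 FPKM in lateral libraries (SD, n = 3) and was at most 0.523 FPKM in any other library. It reached 1 FPKM in the 3 lateral libraries alone, so it entered the test only through the zone where it is high, and its values are given as a description. Wdr34, an intermediate chain of the ciliary dynein, was lower in the ventricular zone (log2 difference -1.07, limma adjusted p = 0.0492) and lost the call without any 1 library other than ventricular zone replicate 2 or medial mantle zone replicate 3 (adjusted p 0.0594 to 0.158).

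Of 14 other transition zone and inversin genes 1 was higher and 1 lower in ventricular than in lateral libraries. For this list and those that follow, the shares over all tested genes were 10.7% higher and 8.93% lower. Ahi1, a Joubert syndrome gene, had 22.9, 30.4 and 28.3 FPKM in ventricular libraries, 47.7, 41.2 and 36.4 FPKM in medial libraries and 60.3, 59.7 and 55.8 FPKM in lateral libraries. The zones did not overlap (log2 difference -1.09 between ventricular and lateral, limma adjusted p = 0.00334). Nek8, a kinase of the inversin compartment, was higher in ventricular than in lateral libraries (log2 difference 1.55, limma adjusted p = 0.0239), a call lost without ventricular zone replicate 1 or any 1 lateral library (adjusted p up to 0.0932). Of 12 basal body and distal appendage genes Cep89 and Cep97 were higher in the ventricular zone (log2 differences 1.18 and 0.89, limma adjusted p = 0.0270 and 0.0338), and the most abundant, Fbf1, had a log2 difference of 0.20, or 0.13 without the shallow libraries. Both calls were lost without ventricular zone replicate 1 or lateral mantle zone replicate 1 or 2, and that of Cep97 also without lateral mantle zone replicate 3 or medial mantle zone replicate 1 or 2 (adjusted p up to 0.133). Of 7 tested ciliary receptor and enzyme genes Evc2, a Hedgehog regulator at the ciliary base, was higher (log2 difference 1.78, limma adjusted p = 0.00369), and the most abundant, the orphan receptor gene Gpr161, had -0.58 with an adjusted p of 0.0897. Of 8 other BBSome genes 0 passed in limma and 1 had an unadjusted p under 0.05, and Rab8a, the most abundant, had a log2 difference of 0.05, or 0.28 without the shallow libraries.

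The results stood beside differences in cell makeup. Summed over 8 neural progenitor markers, libraries held 922 to 1912 FPKM in ventricular libraries, 887 to 1079 FPKM in medial libraries and 86.4 to 119 FPKM in lateral libraries, and 7 of 8 were higher in each inner zone than in the lateral one. The 8 neuron markers summed to 439 to 909 FPKM in ventricular libraries, 884 to 1034 FPKM in medial libraries and 1186 to 1462 FPKM in lateral libraries, with 7 of 8 lower in ventricular than in lateral libraries. Ventricular zone replicate 2 gave both the 922 FPKM of progenitor markers and the 909 FPKM of neuron markers, each within the medial range. Red cell genes also followed the inner zones: 8 of them summed to 2403 to 2826 FPKM in ventricular libraries, 1701 to 3168 FPKM in medial libraries and 416 to 774 FPKM in lateral libraries, and 5 of 7 tested were higher in each inner zone. Over all tested genes, 10.7% were higher and 8.93% lower in ventricular than in lateral libraries, and 3.58% were higher in medial than in lateral ones. The part of these cell types in the cilium gene differences was not tested. Microglia markers summed to 5.31 to 16.3 FPKM in ventricular libraries, 9.24 to 20.6 FPKM in medial libraries and 26.4 to 37.3 FPKM in lateral libraries (2 of 5 lower in ventricular than in lateral libraries), and 0 of 6 endothelial markers passed there in limma, with 0 at an unadjusted p under 0.05. Of the choroid plexus markers, Otx2 was higher in the ventricular zone, Folr1 reached 1 FPKM in the 3 ventricular libraries alone and so entered the test only through that zone, and Ttr and Clic6, which define that epithelium, were at most 0.308 and 0.150 FPKM in any library. Of the hypothalamus markers, Nkx2-1 averaged 121, 102 and 26.0 FPKM and Otp 70.6, 262 and 325 FPKM (ventricular, medial mantle and lateral mantle zones).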

How the data were processed

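Values are the FPKM the authors deposited, 1 per gene and library, in 9 libraries of 3 zones. Per the submitters' processing notes, Bowtie2 2.1.0 and the mm10 build were used; the program that gave FPKM, and whether it used strand, are not given in the sources used here. Per the labels' protocols, libraries were made with an mRNA kit from total RNA and read as 100 bp pairs.

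The table's 38370 rows were reduced by 42 identical rows and 133 repeated symbols (highest mean kept). Genes reaching 1 FPKM in 3 or more of the 9 libraries were tested as log2(FPKM + 1) with limma 3.58.1 in R 4.3.3. The fit had 1 mean per zone and an intensity trend. Tests were two-sided, Benjamini-Hochberg adjusted over all 14004 genes of a comparison at 0.05. The fit was also run on simulated data in which a gene's spread was the same in every library. That run does not check the test for libraries as unequal in depth as these. Members, lists and tests were chosen with earlier results of these data known. Named in full were members past the threshold, up to 6 per comparison without overlap and with a log2 difference of at least 0.5, the highest and the most different of each subcomplex, and of each other list the genes past the threshold (up to 4) and the highest; Ift20, Ift22, Ift172, Bbs4, Bbs10, Inpp5e, Arl13b, Cc2d2a, Tmem67 and Tctn2 were added after their values were seen. Depth was estimated from FPKM steps of low genes with 1 transcript (GENCODE M21). Alternatives changed the pseudocount, filter, scaling, trend, library weights, zones in the fit, replicate block, repeated symbols and libraries. Promoters are RefSeq's on GRCm38.p6, matched for 38 of 42 genes. Exons of Bbs12, Bbs4, Cep290, Ift57, Ift88, Inpp5e, Tctn1 and Tmem67 overlap a gene on the other strand, so reads there may be shared.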

Additional observations from a re-analysis of the deposited data

How the results depend on the processing

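Of the 42 genes, the number past the threshold between the ventricular and lateral mantle zones was 4. It was 1 without a filter, 5 with quantile or trimmed mean scaling, 3 without the trend, 16 with library weights, 0 with only the libraries of the 2 zones, 9 with the deeper libraries, and 0 to 5 with 1 library left out. The share of all genes past the threshold was 19.6%. In those settings, in the same order, it was 9.12%, 21.7% and 21%, 18.2%, 48.6%, 12%, 28.3% and 6.82% to 28.6%. Between the ventricular and medial mantle zones the number of cilium genes was 8 with library weights, where 19.7% of all genes passed. It was 0 in every other setting run, where 0% to 4.09% of all genes passed. Between the medial and lateral mantle zones the number was 6 with library weights (26.4% of all genes) and 3 with only the 2 zones (14.5%). It was 3 with the deeper libraries (12.0%) and 0 to 3 with 1 library left out (1.47% to 12.7%). In the F test the number was 0 with a pseudocount of 0.1 (8.07% of all genes), without a filter (4.15%) or without the trend (9.39%). It was also 0 with quantile (13.5%) or trimmed mean scaling (11.4%). With library weights it was 16 (47.8%), with the deeper libraries 6 (20.8%) and with 1 library left out 0 to 4 (2.86% to 21%). Over all genes the ventricular to lateral count of 2750 was 6800 with library weights, 1684 with the 2 zones and 940 to 3960 with 1 library left out; the medial to lateral count of 577 was 202 to 1767 with 1 left out.

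Deviations of same-numbered libraries correlated from -0.0984 to 0.249, and those of differently numbered libraries of different zones from -0.247 to 0.231. These ranges overlap and do not settle whether replicate numbers pair the libraries. Over all genes a replicate block called 20.7% between the ventricular and lateral mantle zones, against 19.6% without it. Between the medial and lateral mantle zones it called 5.02%, against 4.12%. With the replicate block 4 genes passed between the ventricular and lateral mantle zones, 0 in both other comparisons and 1 in the F test (Ift74 in place of B9d1). Among other named genes, Kif17 left aside, the block ended the call of Cep97 between the ventricular and lateral mantle zones (limma adjusted p = 0.0533).

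Trimmed mean scaling moved the all-gene median from 0.05 to -0.06 between ventricular and lateral mantle zones and from 0.10 to -0.04 between medial and lateral mantle zones. With trimmed mean scaling the subcomplex median moved to 0.015 for IFT-B medial minus lateral, 0.18 for IFT-A ventricular minus lateral, -0.11 for BBSome medial minus lateral, 0.33 for transition zone medial minus lateral, 0.16 for ciliary membrane cargo ventricular minus lateral, -0.073 for ciliary membrane cargo medial minus lateral and -0.45 for motor medial minus lateral. With quantile scaling the subcomplex median moved to 0.14 for IFT-A ventricular minus lateral, -0.13 for BBSome medial minus lateral, 0.30 for transition zone medial minus lateral, 0.15 for ciliary membrane cargo ventricular minus lateral and -0.030 for ciliary membrane cargo medial minus lateral. With library weights the subcomplex median moved to 0.39 for IFT-A ventricular minus lateral, 0.12 for BBSome medial minus lateral, 0.39 for transition zone medial minus lateral, 0.22 for ciliary membrane cargo medial minus lateral, -0.62 for motor ventricular minus lateral and -0.35 for motor ventricular minus medial. With a pseudocount of 0.1 the subcomplex median moved to -1.01 for BBSome ventricular minus lateral and 0.54 for transition zone medial minus lateral. With a filter of a mean of at least 5 FPKM the subcomplex median moved to 0.22 for BBSome medial minus lateral, 0.38 for transition zone medial minus lateral, -0.20 for ciliary membrane cargo ventricular minus medial and 0.21 for ciliary membrane cargo medial minus lateral. With the deeper libraries only the subcomplex median moved to 0.14 for BBSome medial minus lateral, 0.37 for transition zone ventricular minus lateral, 0.34 for transition zone medial minus lateral, 0.16 for ciliary membrane cargo ventricular minus lateral, 0.24 for ciliary membrane cargo medial minus lateral and -0.20 for motor medial minus lateral. With 1 library left out the medians ranged from 0.21 to 0.36 for IFT-A ventricular minus lateral, -0.049 to 0.14 for BBSome medial minus lateral, 0.37 to 0.71 for transition zone ventricular minus lateral, -0.087 to 0.29 for transition zone ventricular minus medial, 0.34 to 0.52 for transition zone medial minus lateral, 0.16 to 0.32 for ciliary membrane cargo ventricular minus lateral, -0.041 to 0.14 for ciliary membrane cargo ventricular minus medial, 0.014 to 0.24 for ciliary membrane cargo medial minus lateral and -0.34 to -0.20 for motor medial minus lateral.

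Of the genes named in full, Kif7, Evc2 and Ahi1 passed between the ventricular and lateral mantle zones in every alternative that gave a value. The ventricular to lateral difference of Ift43 changed sign, from -0.41 in the 9 libraries to 0.95 in the deeper libraries, where it passed (limma adjusted p = 0.0123). Causes of these shifts were not tested. Depth limits the 2 shallow libraries most, where a listed 0 does not show absence.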

Other observations

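Genes of motile cilia, which the members do not include, were split. Of 21 such genes 9 were tested. Between the ventricular and lateral mantle zones 3 of the 9 were higher and 1 was lower, where 10.7% and 8.93% of all tested genes were. The higher ones were transcription factors of ciliated cells: Foxj1 had 8.09, 3.44 and 2.92 FPKM in ventricular libraries, 5.33, 5.42 and 2.12 FPKM in medial libraries and 0.675, 0.924 and 0.171 FPKM in lateral libraries. Its inner libraries were all above the lateral ones (log2 difference 1.80 between ventricular and lateral, limma adjusted p = 0.0208). The X-box binding factors Rfx2 and Rfx3 followed, with log2 differences of 1.20 and 0.92 (limma adjusted p = 0.0355 and 0.0404). The calls of all 3 were lost without ventricular zone replicate 1 or any 1 lateral library, those of Rfx2 and Rfx3 also without medial mantle zone replicate 1 or 2, and that of Rfx3 without ventricular zone replicate 3 (adjusted p up to 0.139).

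The axonemal central pair gene Spag6 was lower in ventricular than in lateral libraries (log2 difference -1.84, limma adjusted p = 0.0310), at 0.253, 1.61 and a listed 0 FPKM in ventricular libraries against 6.65, 3.35 and 3.49 FPKM in lateral ones. Its call was lost without ventricular zone replicate 1 or 3 or any 1 lateral library (adjusted p up to 0.121). Mcidas and Gmnc, which start the multiciliated programme, and Cfap126 were listed at 0 in all 9 libraries. The outer arm dynein genes Dnah5, Dnah9 and Dnah11 did not reach 1 FPKM in any library. Ccdc40, the most abundant of the tested genes, had 16.9, 10.9 and 2.23 FPKM in ventricular libraries against 9.54, 6.23 and 8.65 FPKM in lateral libraries. Its log2 difference between ventricular and lateral mantle zones was -0.03. Without the shallow libraries, one of which gave the 2.23 FPKM, it was 0.69 (limma adjusted p = 0.0690).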
